A study of Mus musculus with 6 samples.

Results

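The genes described here are 47 cell cycle and proliferation genes of the mouse, chosen by symbol for their known roles; no measured value entered the rule, although earlier results of these data were known when it was written. They are 7 genes of G1/S control, 10 of replication licensing and the replication fork, 4 of nucleotide supply, 15 mitotic regulators, 8 of the spindle, kinetochore and chromosome, and 3 cell cycle inhibitors. All 47 were among the 24424 genes of a deposited count table and among the 23393 genes of a second deposited table of normalized values.

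RNA had been sequenced from T cells sorted as regulatory, a lineage defined by the factor Foxp3 that holds immune responses in check; they came from mouse spleen and peripheral lymph nodes. The 6 libraries form 3 groups of 2. The WT group (strain Bcl11bF/F, with no Cre named in its label) and the KO group (strain Bcl11bF/WT Foxp3YFP-Cre +/-) were at steady state, and the KO EAE group carried the KO strain name and had EAE (experimental autoimmune encephalomyelitis, an induced inflammation of the central nervous system used to model multiple sclerosis). Cre driven by Foxp3 acts in Foxp3-expressing cells, so only those cells are meant to lose Bcl11b, a transcription factor of the T cell lineage. The KO strain name gives 1 floxed and 1 WT allele although the genotype label reads KO, and KO is used below as that label. No WT library with EAE was analysed here, so KO EAE differs from WT in genotype and in condition at the same time. The labels do not say whether replicates are separate animals, so p-values measure only the spread between these libraries, which may be technical.

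A dividing cell passes from G1, in which D cyclins and then cyclin E release E2F transcription factors, into S phase, in which the Mcm helicase is fired and DNA is copied, and then through G2 into mitosis under cyclin A, cyclin B and Cdk1. Transcripts of the late genes are nearly absent from resting cells and are made mainly in S, G2 and M, whereas D cyclins, Pcna and the Mcm subunits are also found in cells that have left rest without dividing. Regulatory T cells are a self-renewing population in which a part of the cells divides at steady state and more divide during inflammation.

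The count table held 14663542 to 16904312 reads per library, and a floor of 3 reads was 0.177 to 0.205 counts-per-million (CPM), which covers counting error only. Levels below are CPM after TMM scaling, an adjustment of library size, unless they are said to be per kilobase. Bcl11b, the targeted gene, was at 420 and 425 CPM in WT, 371 and 370 CPM in KO and 404 and 278 CPM in KO EAE, and the difference of KO from WT had an adjusted p of 0.527 in edgeR's quasi-likelihood test (log2 -0.19 ± 0.17, SE). In the normalized table Bcl11b was at 498 and 542 CPM in WT and 321 and 249 CPM in KO (log2 -0.87 ± 0.14, adjusted p 0.0987 by edgeR), and the authors' deposited table of KO against WT lists a log2 fold change of -0.80 with an adjusted p of 7.91e-08. The difference was larger there than in the count table. Counts over a whole gene do not show whether an exon was deleted. Foxp3, the defining factor of regulatory T cells, was at 211 and 206 CPM in WT, 165 and 155 CPM in KO and 163 and 149 CPM in KO EAE, so the labelled cell type was present in every library. Markers of other cells were present as well: the 13 macrophage and dendritic cell markers summed to 198 and 226 CPM in WT, 1425 and 1724 CPM in KO and 1223 and 1444 CPM in KO EAE. In bulk samples fewer cells of a type and less RNA per cell cannot be told apart.

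Each of the 47 genes passed the filter on low counts, and the smallest read count of any of them in a library was 104, for Cdkn1a. Per kilobase of exon, the most abundant in WT were Pcna, the sliding clamp of the replication fork, at 50.0 CPM per kb, Mcm4 at 41.8 CPM per kb, Ccnd2 at 41.6 CPM per kb and Cdkn1b at 38.9 CPM per kb. The mitotic genes lay lower, with Ccnb2 at 17.7 CPM per kb, Mki67 at 14.9 CPM per kb, Top2a at 13.8 CPM per kb, Cdk1 at 3.30 CPM per kb and Bub1 at 2.65 CPM per kb. The lowest level per kilobase in WT was that of Mcm10, at 1.06 CPM per kb. The 10 highest were Pcna, Ccnd2, Cdkn1b, Cdt1 and the 6 helicase subunits Mcm2 to Mcm7, and mitotic genes began below them.

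The libraries of the KO EAE group stood far apart. KO EAE replicate 2 had the highest level of all 6 libraries for 44 of the 47 genes. The exceptions were the D cyclins Ccnd2, highest in WT replicate 1, and Ccnd3, highest in KO replicate 2, and the inhibitor Cdkn1b, highest in WT replicate 2. KO EAE replicate 1 did not share this: it lay above both KO libraries for 15 genes, below both for 14 and at or between them for 18. These orders were not counted over all genes, so how common they are in general is not given.

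**Figure D1:**
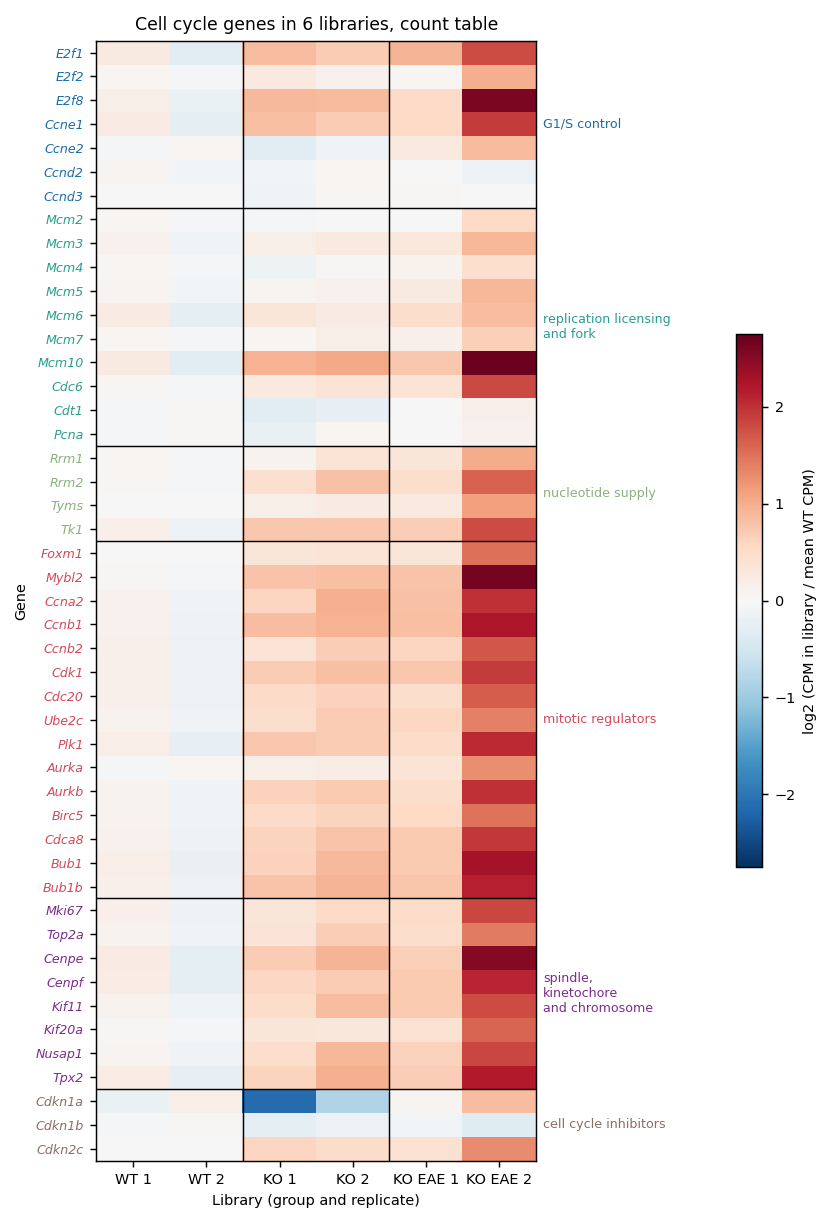
Colour gives the log2 ratio of the CPM in each library (columns) to the mean WT CPM, for the 47 genes (rows, grouped by role) in the count table. The KO EAE 2 column is the darkest red for 44 genes, while KO EAE 1 resembles the KO columns; Ccnd2, Ccnd3, Cdt1 and Pcna stay pale in all 6 libraries and Cdkn1a is blue in KO.

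Between the KO EAE libraries, 38 of the 47 genes were over 1.5-fold higher in replicate 2, against 12.2% of all 14548 genes tested, and 25 were over 2-fold higher, against 5.45%. The median log2 ratio of replicate 2 to replicate 1 was 1.09 for the 47 genes and -0.01 for all genes. The same ratio had a median of -0.20 in WT, where 0 of 47 genes were over 1.5-fold higher against 4.34% of all genes, and of 0.11 in KO, where Cdkn1a alone was, against 4.05%. These are ratios of single libraries, described without a test.

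The ratio between the KO EAE libraries was larger for the roles late in the cycle than for the early ones. All 15 mitotic regulators and all 8 spindle and kinetochore genes were over 1.5-fold higher in replicate 2, with median log2 ratios of 1.20 and 1.27. All 4 nucleotide supply genes were as well, with a median of 0.97. Of the 7 G1/S genes 5 were over 1.5-fold higher, and of the 10 replication genes 4. Mki67, the Ki-67 protein gene used to mark dividing cells, was at 164 and 136 CPM in WT, 190 and 220 CPM in KO and 212 and 538 CPM in KO EAE, so that 5 libraries lie together and KO EAE replicate 2 lies apart. Mybl2, a transcription factor of G2 and M genes, was at 12.8 and 12.3 CPM in WT, 21.6 and 22.2 CPM in KO and 21.5 and 78.3 CPM in KO EAE. Cenpe, a kinetochore motor, was at 25.8 and 18.4 CPM in WT, 35.9 and 42.0 CPM in KO and 34.9 and 127 CPM in KO EAE.

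Within the replication genes the ratio was uneven. The 6 helicase subunits Mcm2 to Mcm7 differed by log2 ratios of 0.36 (Mcm6) to 0.65 (Mcm5), with Mcm3 at 0.60, between the KO EAE libraries, whereas Mcm10, which helps to fire the loaded helicase, differed by 1.92 and Cdc6, which loads it, by 1.41. Cdt1, the partner of Cdc6 in loading, differed by 0.16, and Pcna by 0.11. Cdt1 was at 92.4 and 97.5 CPM in WT, 77.3 and 81.7 CPM in KO and 93.8 and 105 CPM in KO EAE. Among the G1/S genes the largest ratio was that of E2f8, a repressor of E2F targets, at 2.03, the highest of the 47, and the D cyclins Ccnd2 and Ccnd3, which respond to growth signals in G1, had ratios of -0.15 and -0.01. E2f8 was at 14.3 and 11.1 CPM in WT, 23.7 and 23.4 CPM in KO and 18.4 and 76.9 CPM in KO EAE. Both of these D cyclins were level throughout: Ccnd3 was at 142 and 142 CPM in WT, 131 and 146 CPM in KO and 145 and 144 CPM in KO EAE.

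**Figure D2:**
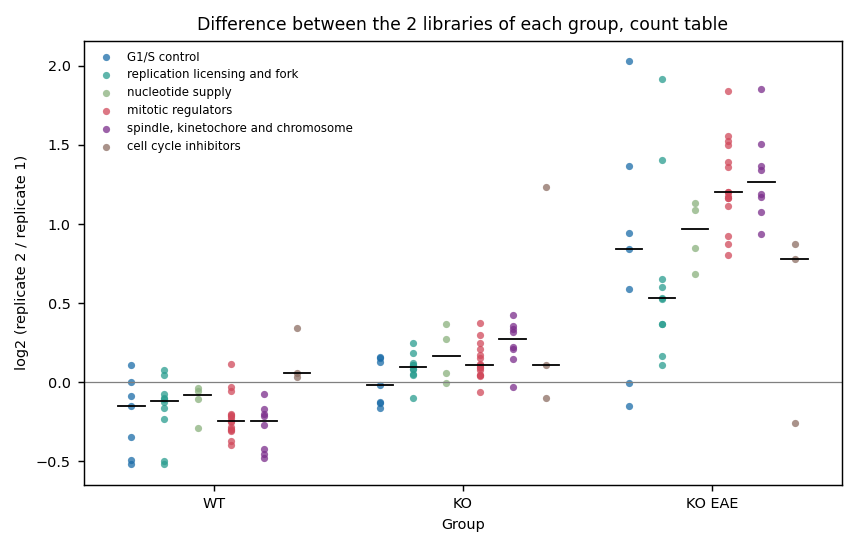
Each point is the log2 ratio of replicate 2 to replicate 1 for 1 of the 47 genes, by group (x axis) and role (colour), and black bars are medians over a role. Points lie between -0.52 and 0.43 in WT and KO, apart from Cdkn1a at 1.23 in KO, and the mitotic and spindle genes of KO EAE lie between 0.80 and 1.85.

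Some markers of other cell types also differed between the KO EAE libraries. The 9 B cell markers summed to 75.0 CPM in replicate 1 and 150 CPM in replicate 2, the 7 NK cell markers to 142 and 236 CPM, and 10 erythroid markers (the list without Tfrc, which activated T cells also express) to 34.8 and 55.1 CPM, with 4 globin genes listed at 0 in every library. With Tfrc the 11 erythroid markers summed to 157 and 167 CPM. The NK cell markers were uneven. Their log2 ratios of replicate 2 to replicate 1 ran from -0.02 (Klrb1c) to 2.74 (Gzma), with a median of 0.38 and 6 of 7 higher. The 13 macrophage and dendritic cell markers summed to 1223 and 1444 CPM and the 10 T cell and regulatory T cell markers to 2093 and 1915 CPM, and the 6 germinal centre B cell markers to 86.5 and 66.9 CPM. Their part in the ratio between the libraries was not tested.

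Promoters of 8 of these genes are shown as examples, 6 from genes over 1.5-fold higher in KO EAE replicate 2 and 2 from genes that were not, chosen with these ratios known. Of the 47 genes, 39 had a promoter sequence in RefSeq (GRCm38.p6), read here as the 250 bases before the annotated start. For each gene only the promoter listed first was read, so other starts were not searched. Genes of G2 and M are known to carry CCAAT boxes, bound by NF-Y, and CHR elements, bound by the DREAM and MuvB complexes, and S phase genes to carry E2F sites. The letters searched on both strands were CCAAT for an NF-Y box, TTTGAA and its variant TTCGAA for a CHR element, and for an E2F site TTCCCGC, the form TTCGCGC, the form TTGGCGC and the form TTGCCGC. The end of a CCAAT box read on the other strand can overlap an E2F match. The sequences below are the 160 bases before the start, 5′ to 3′ on the gene's strand, with matches in capitals. Ccnb2, Cdk1, Mki67, Top2a, E2f8 and Mcm10 were over 1.5-fold higher in KO EAE replicate 2 than in replicate 1, and Ccnd3 and Cdt1 were not.
Ccnb2: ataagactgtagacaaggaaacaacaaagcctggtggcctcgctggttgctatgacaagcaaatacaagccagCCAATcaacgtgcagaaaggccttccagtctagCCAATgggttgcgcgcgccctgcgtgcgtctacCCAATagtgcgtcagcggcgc
Cdk1: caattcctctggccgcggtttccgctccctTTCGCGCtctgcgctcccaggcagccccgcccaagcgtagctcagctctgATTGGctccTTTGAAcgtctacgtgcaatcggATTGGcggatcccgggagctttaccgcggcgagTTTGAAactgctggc
Mki67: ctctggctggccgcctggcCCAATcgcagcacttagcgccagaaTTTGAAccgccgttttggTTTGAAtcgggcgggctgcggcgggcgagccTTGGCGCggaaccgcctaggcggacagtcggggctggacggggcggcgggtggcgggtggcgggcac
Top2a: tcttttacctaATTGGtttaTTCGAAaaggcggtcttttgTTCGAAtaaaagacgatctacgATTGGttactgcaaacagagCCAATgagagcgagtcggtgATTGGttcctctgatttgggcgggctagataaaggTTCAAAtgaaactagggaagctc
E2f8: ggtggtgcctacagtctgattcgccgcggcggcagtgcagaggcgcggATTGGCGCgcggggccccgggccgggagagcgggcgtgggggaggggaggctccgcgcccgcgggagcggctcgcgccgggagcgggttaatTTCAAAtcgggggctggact
Mcm10: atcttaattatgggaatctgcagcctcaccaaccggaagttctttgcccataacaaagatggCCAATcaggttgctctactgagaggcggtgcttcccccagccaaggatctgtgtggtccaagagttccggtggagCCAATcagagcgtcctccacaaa
Ccnd3: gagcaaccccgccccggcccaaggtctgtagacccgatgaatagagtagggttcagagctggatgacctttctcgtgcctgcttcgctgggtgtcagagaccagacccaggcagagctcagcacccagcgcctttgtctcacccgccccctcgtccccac
Cdt1: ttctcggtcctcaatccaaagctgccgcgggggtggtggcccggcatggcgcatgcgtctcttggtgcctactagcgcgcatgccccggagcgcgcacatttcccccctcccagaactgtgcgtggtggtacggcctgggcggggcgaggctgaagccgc

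The windows lie at chr9:70421555-70421714 (Ccnb2, minus strand), chr10:69352913-69353072 (Cdk1, minus strand), chr7:135716380-135716539 (Mki67, minus strand), chr11:99024190-99024349 (Top2a, minus strand), chr7:48881597-48881756 (E2f8, minus strand), chr2:5012792-5012951 (Mcm10, minus strand), chr17:47504891-47505050 (Ccnd3, plus strand), chr8:122567855-122568014 (Cdt1, plus strand). In the 160 bases printed, Mki67 held 2 CHR matches, 1 CCAAT box and 1 E2F match, Cdk1 2 CHR, 2 CCAAT and 1 E2F, and Top2a 3 CHR and 4 CCAAT. In the same bases Ccnb2 held 3 CCAAT boxes with no other match and Mcm10 held 2, while E2f8 held 1 match of each kind, of which CCAAT and E2F share letters. The 250 bases searched held more for some of these genes, among them 1 CHR match for Ccnb2. Ccnd3 and Cdt1 held none of these letters in the window, which says nothing of the factors. Over the 39 promoters of 250 bases, 27 held CCAAT (69.2%, against 34.5% of 27025 promoters), 18 held CCAAT at least 2 times (46.2% against 10.5%), 11 an E2F match (28.2% against 7.97%), and 11 a CHR match (28.2% against 17.4%). By role, CCAAT was found in 10 of 12 mitotic, 5 of 6 spindle, 7 of 9 replication, 2 of 4 nucleotide supply, 2 of 5 G1/S and 1 of 3 inhibitor promoters, so most replication promoters held it too, those of Mcm2, Mcm3, Mcm5, Mcm6, Mcm7 and Pcna among them. For some genes matches and ratios did not go together: Cdkn1b and Pcna held 2 and 1 CCAAT boxes with log2 ratios of -0.26 and 0.11. Mybl2, Ccne1, Nusap1 and Tk1 held none of the letters searched, with log2 ratios of 1.84, 1.37, 1.19 and 1.09. Log2 ratios ran from 0.53 (Mcm7) to 2.03 (E2f8) with a CHR match and from -0.26 (Cdkn1b) to 1.92 (Mcm10) with none. An association of matches with ratios over the 39 promoters was not tested. A match is a description of letters and not evidence of a bound site.

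The first comparison asked how cells labelled KO for Bcl11b differ from WT cells at steady state. In KO, 36 of the 47 genes had both libraries above both WT libraries, against 32.7% of all genes, and 4 had both below, against 32.5%. The median log2 change of the 47 was 0.55, against -0.01 for all genes. In the fit of all 6 libraries, edgeR's quasi-likelihood test called 0 of the 47 past an adjusted p of 0.05, while it called 12.9% of all genes (9.41% higher and 3.46% lower), and 3 of the 47 (E2f1, Cdt1 and Cdkn1a) had an unadjusted p under 0.05, against 28.4% of all genes. DESeq2 called 1, Cdkn1a, which fell by 1.32 on the log2 scale (5.01% of all genes were called lower), and a fit with a replicate block called the same gene, at -1.44 (2.56% lower).

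All 15 mitotic regulators had KO libraries above the WT libraries without overlap, with a median log2 change of 0.70. Ccnb1, the cyclin that activates Cdk1 at mitosis, was at 20.5 and 17.1 CPM in WT and 33.8 and 36.7 CPM in KO (log2 0.90 ± 0.42, SE, adjusted p 0.225 by edgeR). Ccna2, the cyclin A gene, was at 33.0 and 28.1 CPM in WT and 46.4 and 60.3 CPM in KO (log2 0.80 ± 0.38). The spindle checkpoint gene Bub1b was at 27.3 and 22.0 CPM in WT and 42.3 and 47.2 CPM in KO (log2 0.86 ± 0.42). Aurka, a kinase of the spindle poles, had the smallest difference of the 15, with 20.3 and 22.0 CPM in WT and 23.7 and 24.4 CPM in KO (log2 0.19 ± 0.28). The other mitotic genes lay between these, among them Foxm1, a transcription factor of G2 genes (0.35), Cdc20, an activator of the anaphase-promoting complex (0.58), its ubiquitin-conjugating partner Ube2c (0.59), the kinase Plk1 (0.72), and Aurkb, Birc5 and Cdca8 of the chromosomal passenger complex (0.67, 0.57 and 0.70).

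The 8 spindle, kinetochore and chromosome genes also had no overlap, with a median log2 change of 0.66. Mki67 gave 0.45 ± 0.40 and Top2a, the topoisomerase that untangles replicated DNA, 0.52 ± 0.30, from 133 and 116 CPM in WT to 159 and 199 CPM in KO. The spindle proteins Kif11, Nusap1 and Tpx2 gave 0.69, 0.71 and 0.81, and the kinesin Kif20a 0.32. Kif20a shares 29.3% of its exon length with Cdc23 on the opposite strand, and Ube2c 22.8% with Tnnc2. Smaller shares overlap the opposite strand in other genes, among them Ccne2 (17.4%, Ints8), Ccna2 (12.5%, Exosc9) and E2f8 (11.2%, Gm2788). Without known strand use, reads in the shared parts cannot be told apart.

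The S phase genes divided. All 4 nucleotide supply genes lay higher in KO without overlap, from Tyms, thymidylate synthase (log2 0.19 ± 0.27), to Tk1, thymidine kinase (0.74 ± 0.34), with Rrm1 and Rrm2, the subunits of ribonucleotide reductase, at 0.24 and 0.63. Of the replication genes Mcm10 had the largest value of the 47, 0.99 ± 0.60, with 9.70 and 6.61 CPM in WT and 15.7 and 16.7 CPM in KO. The helicase subunits Mcm2 to Mcm7 ranged only from -0.05 (Mcm4) to 0.28 (Mcm6), with Mcm3 at 0.22, Cdt1 was lower without overlap (-0.26 ± 0.09, adjusted p 0.114 by edgeR), and Pcna gave -0.07. Among the G1/S genes E2f1, an activator of S phase genes, gave 0.77 ± 0.32, its relative E2f2 0.19, E2f8 0.89 and the cyclin E gene Ccne1 0.76, whereas the other cyclin E gene, Ccne2, gave -0.21, Ccnd2 -0.00 and Ccnd3 -0.03.

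The 3 inhibitors went different ways. Cdkn1a, which blocks cyclin-dependent kinases after DNA damage and other stress, was at 22.5 and 28.7 CPM in WT and 5.90 and 14.5 CPM in KO (log2 -1.33 ± 0.46, adjusted p 0.119 by edgeR), the largest difference of the 47 in either direction. Its KO libraries also differed most from each other. Cdkn1b, the inhibitor that accompanies rest, was at 173 and 181 CPM in WT and 147 and 158 CPM in KO (-0.21 ± 0.10). Cdkn2c, which binds the kinase partners of D cyclins, was at 25.9 and 26.5 CPM in WT and 39.7 and 37.1 CPM in KO (0.55 ± 0.27).

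The number of calls turned on the third group, which is no side of this comparison but shares its estimate of spread. A fit of the 4 WT and KO libraries alone called 25 of the 47 genes higher and 0 lower, against 14.3% and 7.77% of all genes, with a median log2 change of 0.56. They were 13 of the 15 mitotic regulators (all but Ccnb2 and Aurka), 6 of the 8 spindle genes (all but Cenpf and Kif20a), Rrm2, Tk1, E2f8, Ccne1, Mcm10 and Cdkn2c. In that fit Ccnb1 rose by 0.92 ± 0.13 (adjusted p 0.00811 by edgeR), Bub1b by 0.87 ± 0.13 (0.0104), Mki67 by 0.46 ± 0.11 (0.0425) and Top2a by 0.53 ± 0.12 (0.0352). Leaving out KO EAE replicate 2 alone also gave 25 rises and 0 falls (13% and 7.12% of all genes), 24 of them shared with the 4-library fit. Leaving out KO EAE replicate 1 alone gave 24 rises and a fall of Cdt1 (12.1% and 7.82%). In these 3 fits the median log2 change was 0.54 to 0.56. A lone KO EAE library has no replicate, so the spread in all 3 fits comes from the same 4 WT and KO libraries. Their likeness is therefore built in and is not separate support. Leaving out any WT or KO library gave 0 calls, with medians of 0.42 to 0.67.

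**Figure D3:**
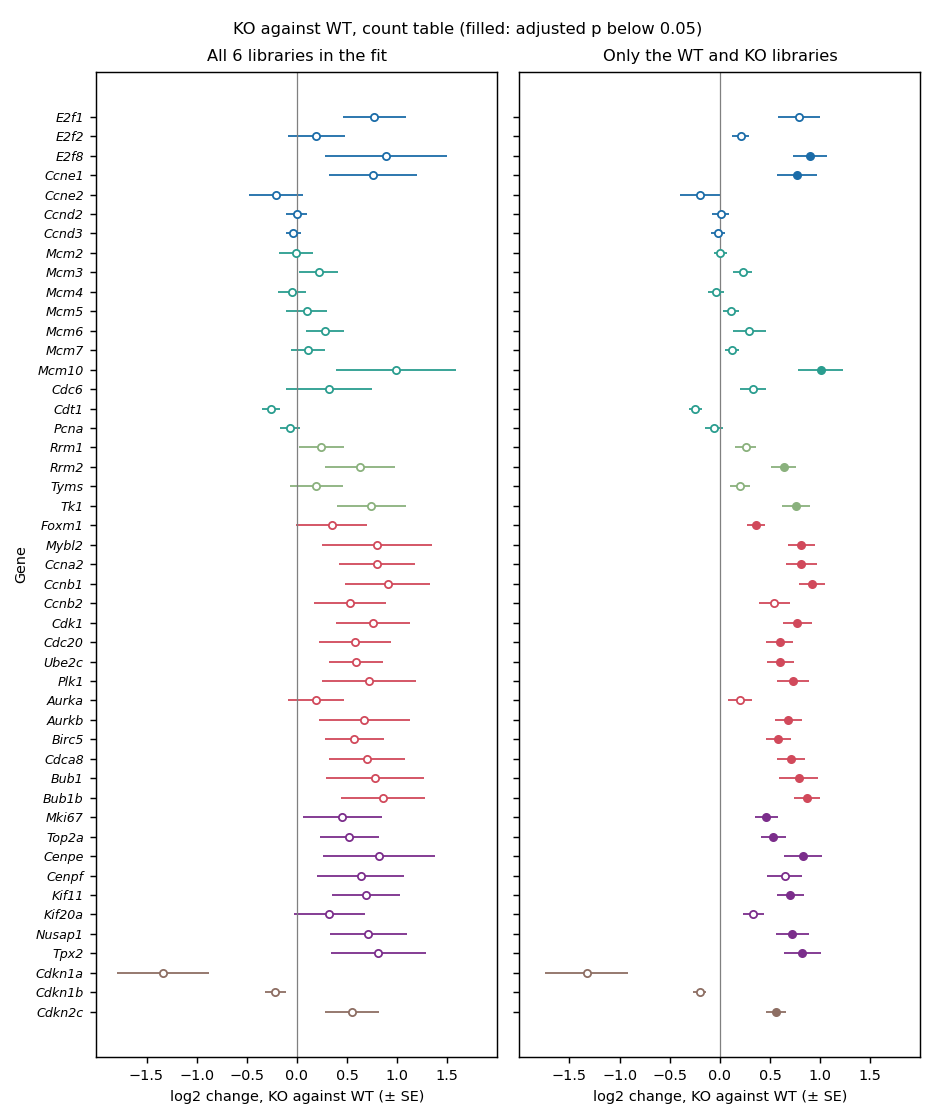
Log2 change of KO against WT (x axis, bars ± SE) for each of the 47 genes, in the fit of all 6 libraries (left) and of the WT and KO libraries alone (right), with filled points for an adjusted p below 0.05. The points hold their places, the bars shorten on the right, and 25 points are filled there against 0 on the left.

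Beside these differences, the summed markers of B cells, NK cells and macrophages and dendritic cells were higher in KO than in WT. The sums for germinal centre B cells and CD8 T cells were lower, and those for plasma cells overlapped. Within these lists genes went different ways. Of the 2 germinal centre genes tested, Fas gave a log2 change of -0.70 and S1pr2 0.25. Of the CD8 genes, Cd8b1 gave -0.36 and Cd8a 0.98. Of the 5 plasma cell genes tested, 3 were positive and 2 negative, from -0.10 (Xbp1) to 3.25 (Mzb1), with a median of 1.49. The 9 B cell markers summed to 47.7 and 43.8 CPM in WT and 86.1 and 138 CPM in KO, and the 7 NK cell markers to 82.8 and 71.0 CPM in WT and 191 and 182 CPM in KO, with none of either list at 0. The 10 erythroid markers without Tfrc summed to 6.82 and 5.21 CPM in WT and 40.7 and 62.4 CPM in KO. Tfrc itself was lower in KO (log2 -0.75). With it the 11 erythroid markers summed to 162 and 174 CPM in WT and 124 and 173 CPM in KO. The macrophage and dendritic cell markers were given above. The 6 plasma cell markers summed to 160 and 195 CPM in WT and 193 and 239 CPM in KO, the CD8 T cell markers to 27.3 and 25.5 CPM and 19.8 and 24.6 CPM, and the 6 germinal centre markers to 93.2 and 99.0 CPM and 76.5 and 76.4 CPM. The 10 T cell and regulatory T cell markers summed to 2504 and 2452 CPM in WT and 1892 and 1993 CPM in KO. Their log2 changes ran from -0.87 (Il2ra) to 0.04 (Cd4), with a median of -0.13, 8 negative and 2 positive. The part of these marker differences in the cell cycle differences was not tested.

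The comparison of KO EAE with KO asked what EAE changes in KO cells. Of the 47 genes 46 had a positive log2 change, with a median of 0.65, but 14 had KO EAE libraries above both KO libraries (17% of all genes) and 0 below (21.3%). EdgeR's quasi-likelihood test called 0 of the 47, against 0.0137% of all genes, with 5 at an unadjusted p under 0.05 (9.47% of all genes). DESeq2 called 1, Cdkn1a, which rose by 1.82 on the log2 scale (0.422% of all genes were called higher). Among those 14 were 7 of the 10 replication genes and 1 of the 15 mitotic regulators, Aurka.

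Cdkn1a had the largest difference of the 47, from 5.90 and 14.5 CPM in KO to 26.9 and 46.5 CPM in KO EAE (log2 1.85 ± 0.46, adjusted p 0.465 by edgeR), levels that overlap those of WT. Ccne2, at 6.41 and 7.23 CPM in KO and 9.51 and 14.5 CPM in KO EAE, gave 0.82 ± 0.27. Cdc6 gave 0.94 ± 0.42, from 19.8 and 21.3 CPM to 21.4 and 57.6 CPM, where replicate 1 lies just above the KO libraries. Mcm5 gave 0.52 ± 0.20 and Cdt1 0.32 ± 0.09.

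Each KO EAE library alone gave a different answer. Without KO EAE replicate 1, edgeR called 34 of the 47 genes higher and 0 lower, against 1.33% and 0.682% of all genes, with a median log2 change of 1.10. In it Mybl2 gave 1.84, Mki67 1.40 and Mcm10 1.71. Without KO EAE replicate 2, it called 0, against 0.0529%, with a median of 0.004, and Mybl2 gave -0.03. In both of these fits the lone library of the group is assumed to vary like the others.

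KO EAE against WT differs in genotype and condition together and shares its WT libraries with the first comparison and its KO EAE libraries with the second. The 47 genes had a median log2 change of 1.16, and 41 lay above both WT libraries (29.9% of all genes) and 1, Cdkn1b, below (30.7%). EdgeR called 1 of the 47, against 9.36% of all genes (7.41% higher and 1.95% lower), with 37 at an unadjusted p under 0.05 (26.3% of all genes). DESeq2 called 33, all higher, against 11.4% of all genes. The called gene was E2f1, at 16.2 and 11.1 CPM in WT and 26.1 and 47.2 CPM in KO EAE, which rose by 1.42 ± 0.32 on the log2 scale (adjusted p 0.0459 by edgeR). This call was lost, with an adjusted p of 0.0503 to 0.212, when any library but KO EAE replicate 1 was left out, with library size alone as scaling, with the replicate block and in the 4-library fit.

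By role the medians of KO EAE against WT were 1.44 for the mitotic regulators, 1.36 for the spindle genes, 0.96 for nucleotide supply, 0.61 for G1/S control and 0.52 for replication. Plk1, for example, was at 23.6 and 17.8 CPM in WT and 29.3 and 85.3 CPM in KO EAE (log2 1.47 ± 0.47). Leaving out KO EAE replicate 1 gave 41 rises and a fall of Cdkn1b, against 13.6% and 10.7% of all genes. Leaving out KO EAE replicate 2 gave 3 rises and 0 falls, against 6.04% and 1.25% of all genes, and a median log2 change of 0.49. These were Mybl2 (0.78), Ccnb1 (0.83) and Bub1b (0.77).

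The second table, of WT and KO libraries only, holds other values under the same library names, so it was tested apart, on whole reads recovered from the normalized values. It held 16884434 to 25335011 reads per library, and 13 of the 47 genes had fewer than 100 reads in some library. Its replicates also differed: 15 of the 47 genes were over 1.5-fold higher in WT replicate 2 than in replicate 1 (15% of all genes), and 13 were over 1.5-fold lower in KO replicate 2 than in replicate 1 (8.18%). EdgeR called 0 of the 47 genes there, against 0.0979% of all genes (0.0653% higher and 0.0326% lower), with 2 at an unadjusted p under 0.05, Mki67 and Tyms (12.5% of all genes). Of the 47, 13 lay higher without overlap (23.9% of all genes) and 5 lower (21.8%), and the median log2 change was 0.24, against 0.01 for all genes.

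The direction was positive in both tables for 31 genes, negative in both for 4, positive in the count table only for 7 and in the normalized table only for 5. Mki67 went the opposite way to the count table: it was at 46.8 and 50.3 CPM in WT and 36.2 and 23.9 CPM in KO (log2 -0.69 ± 0.24, adjusted p 0.316 by edgeR), without overlap. Mybl2 (-0.50 ± 0.39) and Tpx2 (-0.35 ± 0.31) were also negative, and Cdkn1a was positive at 0.53 ± 0.81, on 1.21 and 2.77 CPM in WT and 3.07 and 2.67 CPM in KO. Bub1 gave 1.12 ± 0.50 and Ube2c 1.03 ± 0.47, both higher without overlap. Tyms gave 0.61 ± 0.25, from 15.2 and 17.7 CPM to 27.6 and 22.5 CPM. The authors' deposited table of KO against WT lists an adjusted p for 46 of the 47 genes, none below 0.05, with 36 positive and 11 negative log2 fold changes, a Mki67 log2 fold change of -0.50 (adjusted p 0.167) and a Top2a log2 fold change of 0.14 (0.848), as given in the authors' deposited table.

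**Figure D4:**
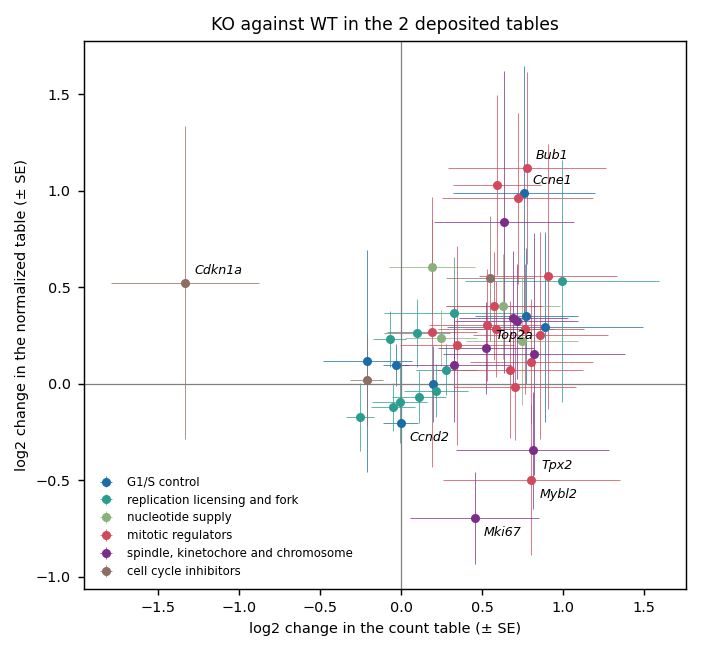
Log2 change of KO against WT in the count table (x axis) and in the normalized table (y axis), with bars ± SE, for the 47 genes coloured by role. Most points lie above 0 on both axes, 31 in all, while Mki67, Mybl2 and Tpx2 lie below 0 on the y axis only and Cdkn1a lies below 0 on the x axis only.

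A wider list of 120 other cell cycle genes (22 of G1/S control, 38 of replication, 44 of mitosis and 16 of inhibition and quiescence) was set beside the 47. In KO against WT 2 of the 120 rose and 1 fell in the fit of all 6 libraries (9.41% and 3.46% of all genes), and 31 rose and 6 fell in the fit of the WT and KO libraries alone (14.3% and 7.77% of all genes), 23 of the rises among the 44 mitosis genes. Ccnd1, the third D cyclin gene, was at 7.63 and 7.23 CPM in WT, 36.8 and 44.8 CPM in KO and 17.3 and 36.2 CPM in KO EAE, and rose in KO by 2.46 ± 0.36 on the log2 scale (adjusted p 0.00759 by edgeR), although the call was lost without either WT library or without KO replicate 2 (adjusted p 0.0511 to 0.0657). In the normalized table Ccnd1 was at 0.181 and 3.70 CPM in WT and 2.64 and 3.20 CPM in KO (log2 0.58 ± 1.21), and its log2 fold change in the authors' deposited table was 0.07. Skp2, which marks Cdkn1b for destruction, was at 7.26 and 8.39 CPM in WT and 20.1 and 27.6 CPM in KO (1.60 ± 0.22, adjusted p 0.00567 by edgeR), and held its call whichever library of the count table was left out. In the normalized table the Skp2 groups overlapped, with 4.52 and 12.1 CPM in WT and 12.8 and 5.50 CPM in KO (0.13 ± 0.60), and its log2 fold change in the authors' deposited table was 0.04. Cdkn1c, an inhibitor related to Cdkn1a and Cdkn1b, fell from 14.4 and 13.8 CPM to 5.62 and 6.01 CPM (-1.28 ± 0.20, adjusted p 0.0105 by edgeR), a call lost when any WT or KO library was left out (adjusted p 0.0663 to 0.0985). In the normalized table Cdkn1c was also lower, from 3.98 and 4.37 CPM to 0.906 and 3.45 CPM, without a call (-0.94 ± 0.81, adjusted p 0.697 by edgeR), and its log2 fold change in the authors' deposited table was -0.18. The authors' SEs for Ccnd1, Skp2 and Cdkn1c (0.15, 0.21 and 0.18) were smaller than edgeR's in the normalized table. Their fold changes may be pulled towards 0, so the sizes are not like for like.

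In KO EAE against KO 0 of the 120 genes were called by edgeR, with 13 at an unadjusted p under 0.05 (9.47% of all genes). The smallest p-values belonged to Dbf4 and Orc6, which act in replication origin firing and recognition (log2 0.36 and 0.44), and, on the lower side, to Lin52 of the MuvB complex (-0.65) and Skp2 (-0.49). In KO EAE against WT 3 rose and 1 fell (7.41% and 1.95% of all genes). The rises were the spindle checkpoint kinase gene Ttk (2.23 ± 0.51, adjusted p 0.0488 by edgeR), Ccnd1 (1.85) and Skp2 (1.12), and the fall that of Cdkn1c (-0.89). Each of these 4 calls was lost without either WT library, those of Ttk, Ccnd1 and Cdkn1c also without either KO library, and those of Ttk and Cdkn1c without KO EAE replicate 2. Without KO EAE replicate 2 Ttk gave 1.30 (adjusted p 0.0651 by edgeR), and its levels were 4.82 and 3.31 CPM in WT, 8.51 and 9.01 CPM in KO and 9.96 and 28.2 CPM in KO EAE. Among the normalized values 0 of the 119 tested were called by edgeR, with 14 at an unadjusted p under 0.05 (12.5% of all genes).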

How the data were processed

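Per the labels' protocols, cells were sorted, RNA was isolated on columns, and NEBNext Ultra II libraries were run on a NextSeq500. Per the submitters' processing notes, the tools named are HISAT2, HTSeq and DESeq2 and the build is mm10; tool versions, gene annotation and strand use were not given in the sources used here. The authors deposited whole-number counts per gene for 6 libraries. They also deposited a normalized signal per gene for WT and KO libraries, in which 100% of values above 0 were whole multiples of the value of 1 read (tolerance 0.02 reads), which allowed the reads to be recovered for a count test, in which edgeR called 12 genes. The authors' deposited table of KO against WT holds a mean signal, log2 fold changes, test scores and p-values. Its SE was 0.04 for Cdkn2a at a mean signal of 1.03 and 0.20 for Mki67 at 825. Its fold changes may thus be pulled towards 0 at low signal and are not the same measure as edgeR's. Rows naming no gene (25 and 27) were left out, at most 0.217% and 0.284% of a library.

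Counts were tested with edgeR 4.0.16 in R 4.3.3 (filterByExpr minimum count 10 and total 15, TMM, quasi-likelihood, 1 coefficient per group over all 6 libraries, 3 residual degrees of freedom, Benjamini-Hochberg over 14548 genes, threshold 0.05; 12253 genes and 2 residual degrees of freedom for the normalized table). The SE is the log2 change divided by the square root of F. Ratios between replicates add 0.5 CPM to both. DESeq2 1.42.0, other scaling, no filter, the 4-library fit, a replicate block and leaving out each library were the alternatives, and leaving out a library of the third group was chosen after seeing the data. The fit was tested on simulated data with the same spread in every group, so that test does not cover a group of wider spread. Exon lengths and overlaps came from GENCODE M21 (mm10) and promoters from RefSeq, matched by symbol. Replicates differed beyond sampling noise (chi-square per degree of freedom of 18.8 to 36.5). All 47 genes were named, with up to 4 of the 120 other genes per direction and comparison by size among those called, or the 2 with the smallest p. The 47 genes and the lists were chosen by known role, with earlier results of these data known.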

Additional observations from a re-analysis of the deposited data

How the results depend on the processing

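With the replicate block edgeR called 1 of the 47 genes in KO against WT, 0 in KO EAE against WT, and 0 genes in all in KO EAE against KO. In the normalized table the replicate block called 77 genes, none of the 47. The labels state no pairing of equal replicate numbers. In the count table, deviations from the group means correlated at 0.02 (WT with KO), -0.14 (WT with KO EAE) and 0.21 (KO with KO EAE). With 1 difference per group this cannot settle whether equal numbers share a batch, and the normalized table was not examined in this way. The fit of the 4 libraries compared called 3121 genes and 25 of the 47 in KO against WT, 0 genes in KO EAE against KO, and 782 genes and 0 of the 47 in KO EAE against WT. DESeq2 called 1, 1 and 33 of the 47 in these comparisons, with 167 and 2213 genes in all in the last 2. Without a filter 8 of the 47 were called in KO EAE against WT, with 1340 of 23511 genes in all. Without it 561 of 15728 genes and 0 of the 47 were called in the normalized table. With library size alone 0 of the 47 were called in KO EAE against WT, with 1302 of 14548 genes in all. Leaving out 1 library gave 846 to 3087 genes and 0 to 25 of the 47 in KO against WT, 0 to 313 and 0 to 34 in KO EAE against KO, 603 to 3762 and 0 to 42 in KO EAE against WT, and 0 to 336 and 0 to 1 in the normalized table. Bcl11b in the normalized table passed the threshold with the replicate block (adjusted p 0.0272 by edgeR), with no filter (1.52e-09) and without WT replicate 2 (0.0300). Apart from the fits with fewer libraries, the cause was not tested.

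Signs turned for the genes listed here, in KO EAE against KO for 22 of the 47 with KO EAE replicate 2 left out, where the median log2 change went from 0.65 to 0.004. In KO against WT the log2 change of Ccnd2 became 0.056 with library size alone, 0.017 with no filter, 0.0080 in the 4-library fit and 0.0058 in DESeq2; that of Mcm2 became 0.050, 0.010 and 0.0014 in the first 3 of these, and Ccnd3 and Mcm4 became 0.025 and 0.0082 with library size alone. In KO EAE against KO, Cdkn1b became -0.019 with library size alone, -0.0090 with no filter and -0.0088 in DESeq2. With 1 library left out, log2 changes that turned sign spanned, in KO against WT, Ccnd2 -0.080 to 0.088, Ccnd3 -0.11 to 0.045, Mcm2 -0.063 to 0.056, Mcm4 -0.15 to 0.044, Pcna -0.20 to 0.050; in KO EAE against WT, Ccnd2 -0.17 to 0.014, Cdt1 -0.014 to 0.14; in the normalized table, where 10, 9, 7 and 4 of the 47 turned without KO replicate 1, WT replicate 1, KO replicate 2 and WT replicate 2, E2f2 -0.18 to 0.16 (0.0042 with no filter), Ccne2 -0.19 to 0.37, Mcm2 -0.41 to 0.16, Mcm3 -0.15 to 0.073, Mcm6 -0.11 to 0.23, Mcm7 -0.18 to 0.030, Mcm10 -0.23 to 1.32, Tk1 -0.18 to 0.54, Foxm1 -0.34 to 1.08, Ccna2 -0.31 to 0.44, Ccnb1 -0.19 to 2.20, Aurka -0.49 to 1.99, Aurkb -0.36 to 0.41, Bub1b -0.34 to 1.29, Cdca8 -0.25 to 0.18, Cenpe -0.52 to 1.48, Kif11 -0.069 to 0.93, Kif20a -0.093 to 0.32, Top2a -0.21 to 0.49, Cdkn1b -0.25 to 0.36; and in KO EAE against KO, E2f2 -0.14 to 0.81, E2f8 -0.35 to 1.71, Ccne1 -0.22 to 1.17, Ccnd3 -0.029 to 0.14, Mcm10 -0.25 to 1.71, Rrm2 -0.14 to 1.002, Tk1 -0.061 to 1.05, Foxm1 -0.024 to 1.17, Mybl2 -0.026 to 1.84, Ccnb1 -0.076 to 1.33, Cdk1 -0.025 to 1.16, Cdc20 -0.093 to 1.09, Ube2c -0.027 to 0.79, Plk1 -0.22 to 1.33, Aurkb -0.19 to 1.33, Birc5 -0.021 to 0.92, Bub1 -0.058 to 1.53, Bub1b -0.091 to 1.29, Top2a -0.045 to 0.90, Cenpe -0.16 to 1.72, Nusap1 -0.073 to 1.14, Tpx2 -0.14 to 1.38, Cdkn1b -0.12 to 0.14, Cdkn2c -0.13 to 0.75.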
